A study of Drosophila melanogaster with 9 samples.

Results

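The cytosolic ribosomal protein genes of Drosophila melanogaster were examined in 9 RNA sequencing libraries of flies that overexpressed Dube3a, the fly Ube3a ubiquitin ligase, in glia or in neurons. Members were the genes whose symbol begins with RpL or RpS followed by a digit or by P, after all RefSeq transcripts of a gene had been summed. They numbered 90 of 15413 gene entries in the count table: 49 genes of the large subunit, 32 of the small subunit and 9 low paralogues. A low paralogue was a member of a duplicated set with a mean level under 10% of that of its most abundant copy. A pair of further annotated members, RpL10Aa and RpS28-like, was not analysed here.

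The glial group carried the repo-GAL4 driver with UAS-Dube3a, the neuronal group carried elav-GAL4 with UAS-Dube3a, and the control group carried UAS-Dube3a alone. Their libraries were labelled Repo_Das45, C155_Das45 and w_Das45, so the control label has w in the place of a driver. GAL4 is a yeast transcription factor, expressed here under a glial or a neuronal promoter, that turns on genes placed behind UAS sites. Each group had 3 libraries. All 3 groups carried the transgene and no group carried a driver without it, so an effect of a driver cannot be told apart from one of Dube3a. The flies were raised at 25 °C and sampled 3 to 5 days after eclosion, and RNA was taken from pools of 15 to 25. The sample labels name whole or dissected brain, whereas the design text names heads. The labels do not say whether replicates came from separate crosses, so each p-value measures the spread between these samples, which may be technical.

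A cytosolic ribosome joins a small subunit, which reads the mRNA, to a large subunit, which forms the peptide bond. Most of its proteins are needed in single copies, so cells make their mRNAs in step. In Drosophila the loss of 1 copy of many of these genes gives the Minute phenotype of slow growth and thin bristles. A few members have duplicated copies, several of which are known for expression in the germline. Other members carry small nucleolar RNAs (snoRNAs) in their introns, which guide the modification of ribosomal RNA.

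The libraries held between 35550949 and 60322417 counts. Ube3a averaged 209 ± 17.5 CPM (counts scaled to a library size of 1e+06) in the glial libraries, 70.4 ± 7.95 CPM in the neuronal libraries and 34.6 ± 4.58 CPM in the control libraries (SD, n = 3 each). Digestive enzyme genes of the gut, which a dissected brain should lack, averaged between 3.72 and 8.14 on the log2 CPM scale over the 9 libraries. Their low values, 4.32, 4.50 and 3.72, were in glial library 2, control library 1 and control library 3. Yolk protein genes, made in the fat body of the female, summed to between 38263 CPM in glial library 1 and 153579 CPM in glial library 3. Eye markers were present at 48908 to 70564 CPM in all libraries.

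Ribosomal protein genes took up close to the same share of all counts in the 3 genotypes. They held 9.52%, 9.56% and 10.1% of the counts in the glial libraries, 9.42%, 8.91% and 9.58% in the neuronal libraries, and 10.4%, 9.60% and 9.95% in the control libraries. The neuronal libraries were below every control library, while the glial values overlapped with those of the control. The mean share was 9.74% ± 0.344 in glial, 9.30% ± 0.350 in neuronal and 9.97% ± 0.389 in control libraries (SD, n = 3 each). The large subunit genes held a mean of 5.20%, 4.88% and 5.32% of the counts in glial, neuronal and control libraries, and the small subunit genes held 4.54%, 4.42% and 4.64%. The 9 low paralogues together held between 0.00404% and 0.00684% of the counts in any library. In bulk RNA, fewer cells of a type and less of these mRNAs per cell cannot be told apart.

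Levels of different genes were compared per kilobase of exon. Large subunit genes had a median of 741 CPM per kb and ran from 6.48 CPM per kb for RpL38 to 4886 CPM per kb for RpLP1, a 754-fold range. RpLP1 encodes an acidic protein of the stalk that recruits elongation factors. RpL6, at 3052 CPM per kb, and RpL23A, at 2995 CPM per kb, followed it. At the low end RpL15 had 35.3 CPM per kb, RpL39 had 57.8 CPM per kb and RpL41 had 58.9 CPM per kb. RpL41 codes for a peptide of 25 residues, the shortest of the ribosome. The transcript of RpL39 overlaps that of RpL12 on the other strand, and reads of the overlap cannot be assigned without strand, which the sources used here do not give.

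Small subunit genes had a median of 1012 CPM per kb. RpS29, at 4369 CPM per kb, and RpS6, at 4068 CPM per kb, were among the highest. RpS6 is the classical substrate of S6 kinase in the TOR pathway. RpS3A, the single member on chromosome 4, was the lowest at 61.5 CPM per kb, and RpS27 at 330.1 and RpS10b at 342 followed. RpS3A had 65.1 ± 16.7 CPM per kb in glial libraries, 56.2 ± 2.21 in neuronal libraries and 63.2 ± 4.70 in control libraries (SD, n = 3 each). Across genes, level per kb had a Spearman correlation with exon length of 0.17 in the large subunit and 0.00 in the small subunit. When only the most abundant transcript of each gene was counted, 6 of the 10 highest genes stayed among the 10 highest, so the order depends on how transcripts are summed.

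**Figure D1:**
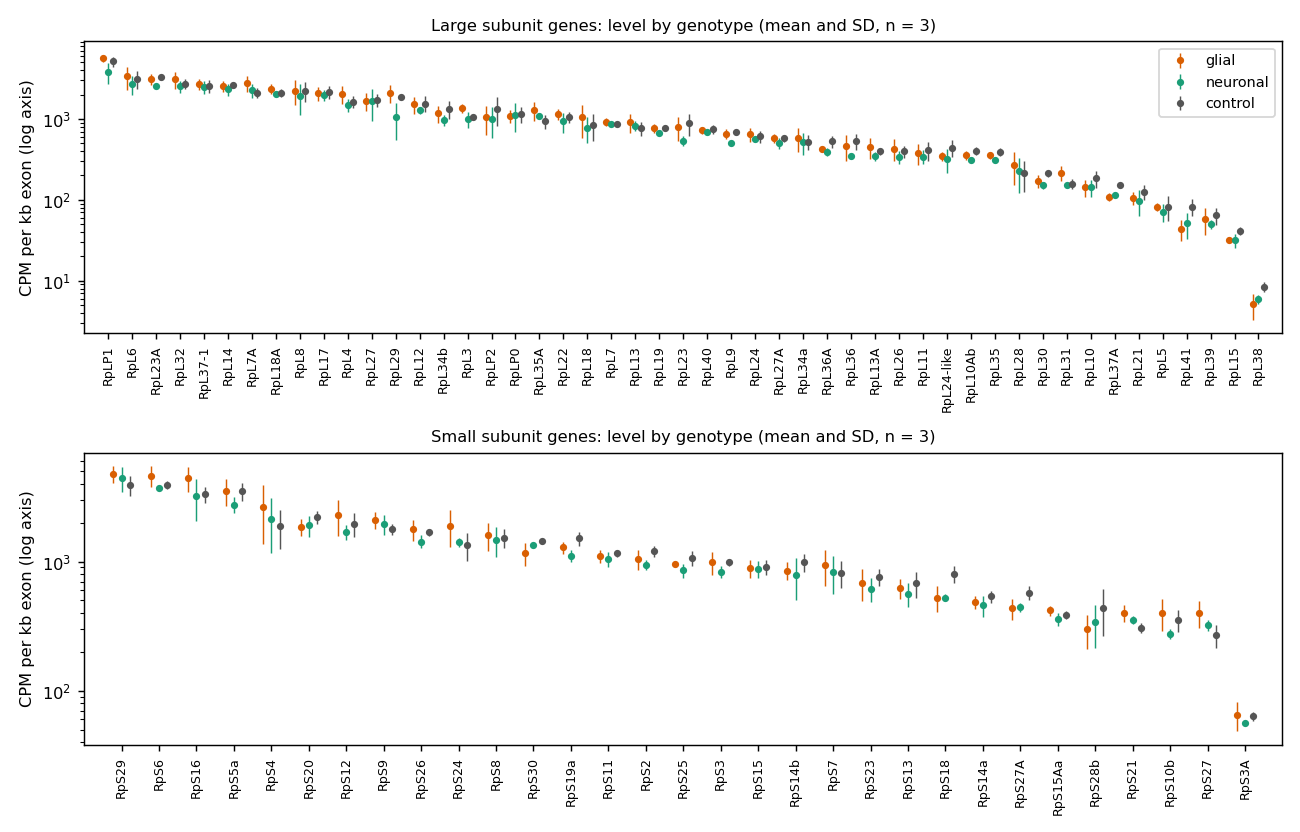
Level of each large subunit gene (top) and small subunit gene (bottom) in CPM per kb of exon on a log axis, as the mean and SD of 3 libraries for glial, neuronal and control flies. A small subunit gene is not drawn. RpLP1 leads the large subunit, RpL38 lies lowest at 6.48 CPM per kb, and the 3 genotypes lie close together at most genes.

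Members were spread over all chromosome arms, with 18 on 2L, 21 on 2R, 14 on 3L, 22 on 3R, 14 on X and 1 on chromosome 4. Annotated snoRNAs, 74 in all, lay within 28 members, so 31.1% of members carried at least 1, against 0.639% of the 12982 protein-coding genes in the table. RpS5a carried 14, RpS7 carried 7, and RpL28 and RpS16 carried 5 each. Exons of 29 members overlapped those of another gene, 25 of them on the opposite strand.

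In the glial line the ribosomal protein genes had no common shift from control. With edgeR's quasi-likelihood test, 0 of the 86 members that passed the filter on low counts reached an adjusted p under 0.05 in glial against control libraries, against 4.42% of all 11430 genes tested. Of the 81 large and small subunit genes, 3 were higher and 6 were lower at an unadjusted p under 0.05, against 10.6% and 9.38% of all genes. The median log2 fold change was −0.02 for the large subunit and 0.00 for the small subunit, beside 0.01 for all genes. By sign, 38 of the 81 genes were higher and 43 lower, beside 49.3% of all genes lower. The number lower was 55 with library totals, 28 without glial library 1 and 58 without glial library 3. The 95% interval of the fold change lay within 2-fold on both sides for 70 of the 81. DESeq2 called 4 members lower, RpL37A, RpL41, RpS18 and RpS5b, against 9.74% of all genes called. The sign of the median was not stable: it was 0.09 over the 81 genes without glial library 1, 0.07 without control library 1 and −0.14 without glial library 3.

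The most separated genes of this comparison were lower in the glial libraries. RpS18, a protein of the head of the small subunit, had 402, 265 and 293 CPM in glial libraries, 344, 313 and 305 CPM in neuronal libraries, and 466, 434 and 570.5 CPM in control libraries. All 6 libraries with a driver lay below the lowest control library. Of all genes, 12.9% had all glial and 10.5% all neuronal libraries below all control libraries. The share of all genes with both was not counted. Its log2 fold change was −0.61 ± 0.18 (SE) in glial against control and −0.61 ± 0.18 in neuronal against control, with edgeR adjusted p of 0.102 and 0.194. The 2 comparisons share the control libraries. DESeq2 gave adjusted p of 0.0146 and 0.0299. Without glial library 1, edgeR also called RpS18 in glial against control, at a log2 fold change of −0.81 and an adjusted p of 0.0353.

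RpL37A, a zinc-binding protein of the large subunit, was chosen for description after its values were seen, as the member with the smallest adjusted p. It had 89.7, 74.0 and 90.1 CPM in glial, 97.7, 89.2 and 81.4 CPM in neuronal, and 114, 113.7 and 128 CPM in control libraries. Again every library with a driver lay below every control library, an order whose share over all genes was not counted. The edgeR adjusted p was 0.0607 for glial against control, at a log2 fold change of −0.49 ± 0.12 (SE), and 0.199 for neuronal against control, at −0.41 ± 0.12. An antisense RNA gene overlaps its exons.

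RpL41 and RpL38 belong to the least abundant members. RpL41 had 9.59, 14.9 and 17.3 CPM in glial, 14.2, 22.9 and 11.9 CPM in neuronal, and 33.1, 24.7 and 21.0 CPM in control libraries. RpL38 had 5.31, 3.27 and 6.92 CPM in glial, 6.70, 5.22 and 6.04 CPM in neuronal, and 9.73, 7.45 and 8.45 CPM in control libraries. Both were lower in each glial library than in any control library, and neuronal library 2 overlapped with the control at RpL41. The log2 fold change of glial against control was −0.92 ± 0.30 for RpL41 and −0.73 ± 0.26 for RpL38 (SE), with edgeR adjusted p of 0.132 and 0.162. RpL38 is a large subunit protein that in mice is needed for the translation of a group of Hox mRNAs.

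Towards higher levels, RpL31, which lies near the exit of the peptide tunnel, had 104, 131.5 and 160.5 CPM in glial, 92.3, 86.0 and 100.4 CPM in neuronal, and 93.2, 111 and 86.8 CPM in control libraries. All glial libraries were above all neuronal ones, and glial library 1 overlapped with the control. Its log2 fold change was 0.44 ± 0.17 against control and 0.51 ± 0.17 against neuronal libraries (SE), with edgeR adjusted p of 0.182 and 0.15. The gene clos overlaps its exons on the other strand. RpS27 had a log2 fold change of 0.58 ± 0.20 in glial against control (SE, adjusted p = 0.158), RpS24 of 0.50 ± 0.27 (adjusted p = 0.355) and RpL35A of 0.46 ± 0.23 (adjusted p = 0.302). RpS28b, at −0.55 ± 0.35 (adjusted p = 0.425), was the second lowest of the small subunit, and had −0.18 without control library 3. RpL3, a protein of the peptidyl transferase region, was the 1 gene whose glial libraries all lay above all control libraries, against 12% of all genes. In the lower direction this held for 6 genes, RpL15, RpL37A, RpL38, RpL41, RpS18 and RpS30, against 12.9% of all genes.

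**Figure D2:**
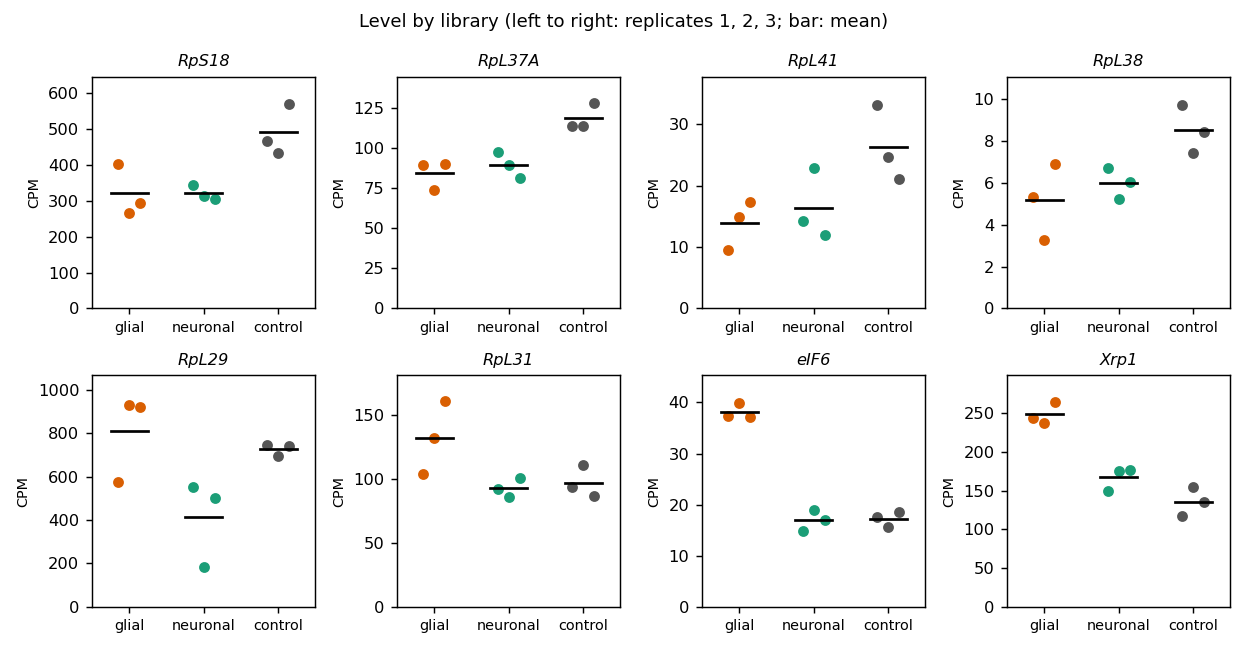
CPM of 6 ribosomal protein genes and of eIF6 and Xrp1 in each library, with points as libraries and bars as means of 3 for glial, neuronal and control flies. RpS18, RpL37A and RpL38 lie below the control in all 6 libraries with a driver, an order whose share over all genes was not counted. The values of eIF6 lie between 37.1 and 39.9 CPM in glial libraries, above all others.

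In the neuronal line most ribosomal protein genes had values slightly below control, without any single gene passing the test. With edgeR, 0 of the 86 members reached an adjusted p under 0.05, against 0.709% of all genes tested, and DESeq2 called RpS18 and RpS5b, against 4.11% of all genes. At an unadjusted p under 0.05, 12 of the 81 large and small subunit genes were lower and 0 higher, against 6.73% and 6.55% of all genes. Log2 fold changes were negative for 70 of the 81 genes, 45 of 49 in the large subunit and 25 of 32 in the small subunit, beside 49.5% of all genes. The median was −0.22 for the large and −0.21 for the small subunit, beside 0.00 for all genes. The interval of 67 of the 81 genes lay within 2-fold. The genes were measured in the same libraries and are not independent observations.

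The size of this shift rested in part on single libraries. Over the 81 genes the median was −0.12 without control library 1, whose ribosomal protein share was the highest of the 9, and −0.16 without neuronal library 1. The number of genes below control stayed between 61 and 73 of 81 in each setting tried. With library totals in place of TMM scaling 63 genes were lower and the median was −0.16, while the median of all genes moved to 0.06. Yolk protein genes summed to 54644, 74914 and 68022 CPM in neuronal libraries, against 143667, 90569 and 83337 CPM in control libraries, with no overlap. At an unadjusted p under 0.05, 4 of 10 neuronal markers were higher. So were 1 of 9 fat body, 1 of 22 gut, 1 of 11 glial and 1 of 12 muscle markers. Lower were 3 of 6 hemocyte, 3 of 9 fat body, 2 of 12 eye and 1 of 12 muscle markers. Of all genes, 6.55% were higher and 6.73% lower at that p, and edgeR called 1 eye gene, Rh5. The part of these tissues in the result was not tested. With the gut level as a covariate 73 of the 81 genes were lower, at a median of −0.23.

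RpL29, a small protein of the large subunit that yeast can live without, had the largest negative value of the large subunit genes in this comparison. It had 573.5, 932 and 921 CPM in glial, 553, 182 and 502 CPM in neuronal, and 744, 696 and 740 CPM in control libraries. The neuronal libraries lay below all others, and neuronal library 2 lay far below its own group. The log2 fold change was −0.82 ± 0.37 in neuronal against control and 0.97 ± 0.37 in glial against neuronal (SE), with edgeR adjusted p of 0.385 and 0.204. Without neuronal library 2 the values were −0.46 and 0.62. The gene CG9752 overlaps its exons on the other strand. DESeq2 called RpL29 in glial against neuronal libraries, the only member it called there, against 8.86% of all genes.

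RpL23 had 289, 441 and 568 CPM in glial, 252, 332 and 297 CPM in neuronal, and 562, 559 and 315 CPM in control libraries. Its log2 fold change in neuronal against control was −0.70 ± 0.29 (SE, edgeR adjusted p = 0.341), with control library 3 inside the neuronal range. RpS19a, which binds near the head of the small subunit and whose human counterpart is mutated in Diamond-Blackfan anaemia, had a log2 fold change of −0.45 ± 0.17 (adjusted p = 0.315). Its 3 neuronal libraries, at 1402, 1531 and 1248 CPM, lay below all control libraries, at 2068, 2009 and 1625 CPM. The 2 largest positive values of the small subunit were those of RpS27 at 0.27 ± 0.20 and RpS21 at 0.21 ± 0.15 (SE, adjusted p of 0.627 and 0.583). In the large subunit they were those of RpL35A at 0.24 ± 0.23 and RpL7A at 0.10 ± 0.24 (SE, adjusted p of 0.705 and 0.899). Of the 81 genes, 16 had all neuronal libraries below all control libraries, against 10.5% of all genes, and 0 had all of them above, against 10.7% of all genes.

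RpS27A and RpL40 are made as fusions with ubiquitin, and were chosen after their values were seen because Ube3a is a ubiquitin ligase. RpS27A had 257, 210.4 and 304 CPM in glial, 273, 239 and 274 CPM in neuronal, and 365, 292 and 364 CPM in control libraries. Its neuronal libraries lay below all control libraries and glial library 3 overlapped with the control. Against control its log2 fold change was −0.40 ± 0.16 in glial and −0.38 ± 0.16 in neuronal libraries (SE, edgeR adjusted p = 0.207 and 0.362). RpL40 overlapped between all groups, with log2 fold changes against control of −0.05 ± 0.15 and −0.11 ± 0.15.

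Between the driver lines, 71 of the 81 genes had higher values in glial than in neuronal libraries, beside 51.5% of all genes, and again none passed. The count was 43 of 81 with library totals and 57 of 81 without glial library 3. With edgeR 0 of the 86 members were called, against 3.69% of all genes, and at an unadjusted p under 0.05 5 of the 81 were higher and 0 lower, against 9.61% and 8.57%. The median log2 fold change was 0.19 for the large and 0.15 for the small subunit, beside 0.01 for all genes. With library totals those medians became 0.02 and −0.02 while that of all genes moved to −0.15, so the sign of the small subunit median depends on the scaling. Without glial library 3 the median over the 81 genes was 0.07. The glial libraries lay entirely above the neuronal ones for RpL9, RpL23A, RpL29, RpL31, RpLP1 and RpS15Aa, against 11.1% of all genes.

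RpLP1 had 3905, 4391 and 4783 CPM in glial libraries, against 2729.8, 2177 and 3904 CPM in neuronal libraries, at a log2 fold change of 0.57 ± 0.25 (SE, edgeR adjusted p = 0.263). The lowest glial library lay just above the highest neuronal one. RpS10b, at 0.55 ± 0.23 (adjusted p = 0.24), and RpS16, at 0.47 ± 0.30 (adjusted p = 0.473), had the largest positive values of the small subunit. The negative end was held by RpL41 at −0.23 ± 0.30, RpL38 at −0.21 ± 0.26, RpS30 at −0.21 ± 0.17 and RpS28b at −0.18 ± 0.35, all with adjusted p of 0.591 or more.

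**Figure D3:**
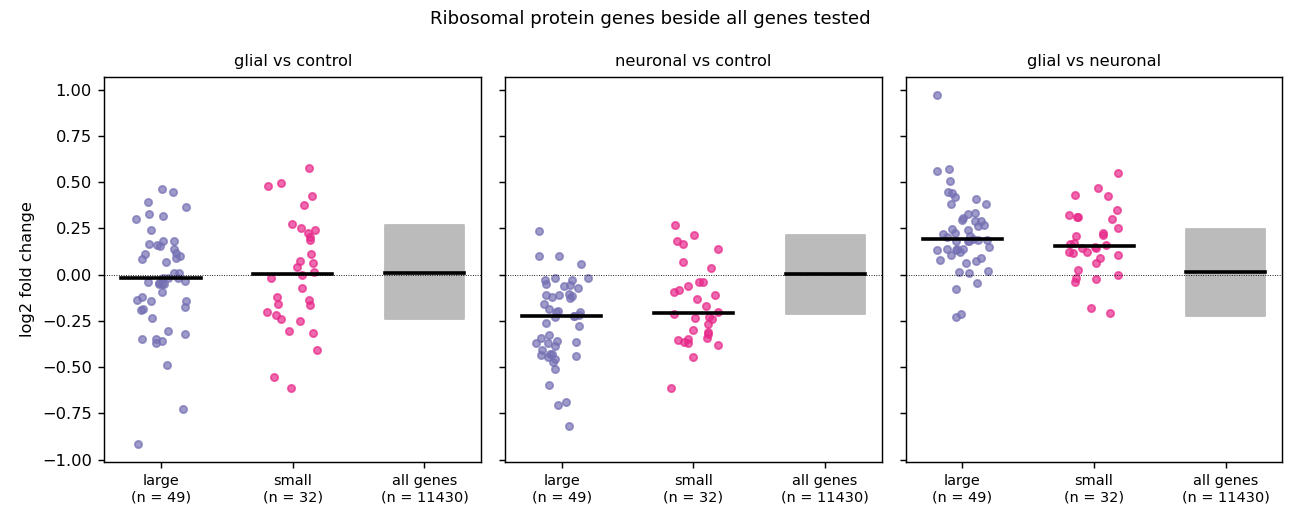
Log2 fold change of each large and small subunit gene (points, with the median as a bar) and of all 11430 genes tested (grey box from the lower to the upper quartile, with the median) in glial vs control, neuronal vs control and glial vs neuronal. Points of the neuronal comparison lie mostly below 0, with medians of −0.22 and −0.21, and those of the glial comparison scatter around 0.

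Libraries of one genotype differed from each other at many members. The SD of log2 CPM within groups had a median of 0.286 over the 81 genes, against 0.263 over all genes and 0.198 over the 2168 genes with a mean above 6 on the log2 CPM scale. It was lowest for RpL7, at 0.106, and highest for RpL28, at 0.691. Differences between genotype means made up a median of 28.0% of a member's variance over the 9 libraries, against 35.0% over all genes. Over the 2168 genes with a mean above 6 it was 39.6%. With 3 libraries per group, spread between libraries alone also gives part of such a share, so it does not measure a genotype effect.

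The first principal axis of the 81 genes held 51.7% of their variance and the second 23.6%. On the first axis the glial libraries scored −2.31, 1.95 and 2.73, the neuronal libraries −2.55, 1.64 and −0.66, and the control libraries 1.14, 0.96 and −2.90. Each genotype thus had libraries at both ends of this axis, on which 54 of the 81 genes had positive and 27 negative weights. On the second axis, where 69 of the 81 weights were positive, the glial libraries scored −0.34, −0.55 and 1.57, the neuronal libraries −0.70, −2.86 and −0.71, and the control libraries 1.57, 0.65 and 1.37. There the neuronal libraries and glial libraries 1 and 2 lay below all control libraries, and RpL29 had the largest weight. On the first axis RpL28, RpL18, RpS4, RpL8, RpS7 and RpL6 had the largest positive weights, and RpLP2, RpS28b, RpL10, RpL11, RpL24-like and RpL21 the largest negative ones.

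RpL28 had 189, 468 and 465 CPM in glial, 214, 476 and 240.3 CPM in neuronal, and 401.5, 331 and 162 CPM in control libraries. RpS4, which binds early in small subunit assembly, had 1962, 3853 and 5613.5 CPM in glial, 1902, 4635 and 2744 CPM in neuronal, and 2931.5, 3517 and 1738 CPM in control libraries. RpLP2, the partner of RpLP1 in the stalk, had 915, 436 and 554 CPM in glial, 783, 319.9 and 702 CPM in neuronal, and 665, 592 and 1171 CPM in control libraries. RpL28 and RpS4 were low, and RpLP2 high, in glial library 1, neuronal library 1 and control library 3.

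RpLP1, like RpLP2, had its lowest value, 2177 CPM, in neuronal library 2. Unlike RpLP2, it was not high in glial library 1 or control library 3. Those had 3905 and 3331 CPM of RpLP1, the lowest values of their groups. The 3 libraries at the low end of the axis had yolk protein sums of 38263, 54644 and 83337 CPM in the order glial, neuronal and control. At the high end glial libraries 2 and 3 had 144577 and 153579 CPM, neuronal library 2 had 74914 CPM and control library 1 had 143667 CPM. The yolk sums thus followed the axis in part, with neuronal library 2 below control library 3. The gut level had no such order, since glial library 1 and glial library 3 had 8.03 and 8.14 on the log2 CPM scale at opposite ends. The part of yolk-expressing tissue in the axis was not tested. Across the 81 genes the weights had a Spearman correlation of 0.17 with exon length and 0.31 with mean level.

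**Figure D4:**
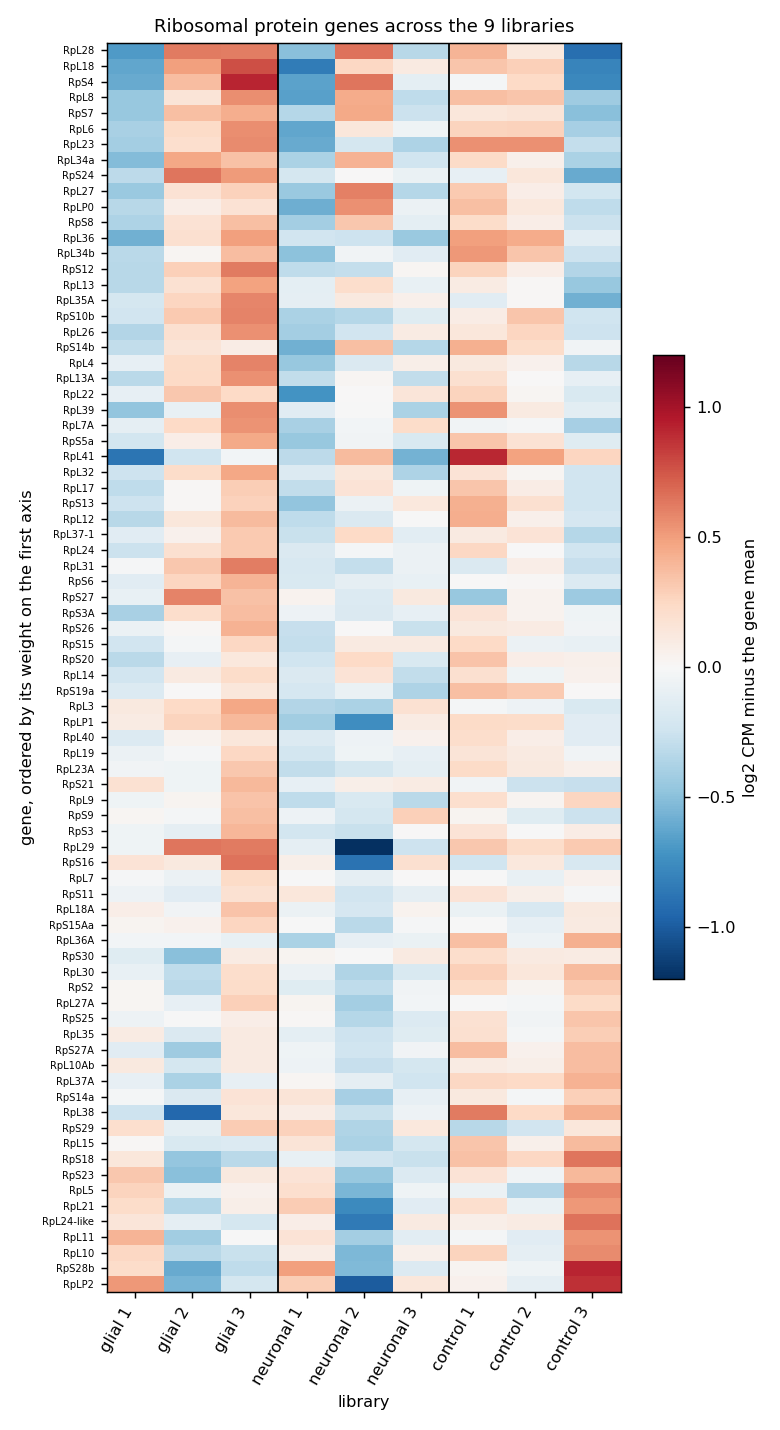
Log2 CPM minus the gene's mean (colour, limited to the range shown) for the large and small subunit genes with 1 not drawn, ordered by their weight on the first axis, in the 3 glial, 3 neuronal and 3 control libraries. Upper genes are low and lower genes high in glial 1, neuronal 1 and control 3, and libraries of 1 genotype differ from each other.

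RpL32, the rp49 gene used as a reference in many fly RT-PCR studies, was chosen for this description after its values were seen. It had 1849, 2558 and 3016 CPM in glial, 1956, 2406 and 1701 CPM in neuronal, and 2448, 2227 and 1875 CPM in control libraries. The groups overlapped, and within the glial group library 3 stood well above library 1. Its log2 fold change was 0.18 ± 0.23 in glial and −0.11 ± 0.23 in neuronal against control (SE).

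Of the duplicated genes, most sets were carried by 1 copy. RpS14a and RpS14b encode the same protein from near-identical neighbouring copies, and reads may have been split between them, so their shares are uncertain. RpS14a took 50.4%, 40.2% and 47.0% of the pair in glial, 58.3%, 33.2% and 50.03% in neuronal, and 40.6%, 41.6% and 51.5% in control libraries. Their sum averaged 935 ± 92.9 CPM in glial, 867 ± 98.0 CPM in neuronal and 1061 ± 76.9 CPM in control libraries (SD, n = 3 each). RpL34a took between 20.3% and 29.9% of its pair with RpL34b in all libraries. RpL24-like, a homologue of the yeast ribosome assembly factor Rlp24 rather than a ribosomal protein, took 25.2%, 25.5% and 30.9% of its set with RpL24 on average in glial, neuronal and control libraries. By its symbol and level it was counted among the 49 large subunit genes throughout.

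The low paralogues RpS15Ab and RpL7-like took 2.39% and 2.80% of their sets in glial libraries, 2.96% and 2.45% in neuronal libraries, and 2.59% and 2.84% in control libraries. RpLP0-like, a homologue of the yeast assembly factor Mrt4, took 0.712%, 0.764% and 0.871% in the same order. The testis and germline copies were close to absent. RpL22-like had 5 counts and RpS28a 3 counts, in glial library 1 alone. RpS19b had at most 4 counts in any library, and RpL37-2 had 0, 0 and 0 counts in glial, 0, 0 and 3 in neuronal, and 6, 6 and 5 in control libraries. These 4 genes were too low to be tested. The limit that a count of 0 allows, 3 counts, corresponded to between 0.0457 and 0.0969 CPM per library. RpS10a had 18, 8 and 11 counts in glial, 8, 1 and 3 in neuronal, and 23, 11 and 1 in control libraries, with glial above neuronal in CPM and control spanning both.

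RpS5b, the copy of RpS5a that serves the female germline, had the largest fold change against control of the members tested. It had 14, 8 and 12 counts in glial, 15, 10 and 25 counts in neuronal, and 280, 102 and 5 counts in control libraries. Control libraries 1 and 2 stood above all others, while control library 3 stood below all others. The fitted log2 fold change was −3.70 ± 1.09 in glial and −3.09 ± 1.05 in neuronal against control (SE), with edgeR adjusted p of 0.102 and 0.252. DESeq2 called it in both comparisons, at adjusted p of 0.00108 and 0.018. Without control library 3 edgeR did so too, at adjusted p of 0.00833 and 0.0333, and without control library 1 the values were −2.53 and −1.92 with adjusted p of 0.315 and 0.644. RpS5a, its ubiquitous copy, held at least 99.9% of the pair in every library except control library 1, where it held 99.867%.

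Some ovary and germline markers had their highest counts in control libraries 1 and 2. The ovary gene oskar (osk) had 3, 0 and 0 counts in glial, 0, 0 and 0 in neuronal, and 48, 10 and 1 in control libraries. The thioredoxin gene deadhead (dhd) had 3, 0 and 0 counts in glial, 0, 0 and 0 in neuronal, and 57, 19 and 7 in control libraries. The counts of otu were 30, 15 and 20 in glial, 27, 20 and 21 in neuronal, and 98, 57 and 4 in control libraries. The germline helicase gene vasa (vas) stayed at or below 0.137 CPM in all libraries. The 12 ovary and germline markers together summed to between 57.2 and 79.2 CPM in glial, 65.3 and 82.8 CPM in neuronal, and 63.8 and 84.0 CPM in control libraries. The sum in control library 2, 71.1 CPM, lay within the ranges of the glial and neuronal libraries. The part of ovary RNA in the RpS5b values was not tested.

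**Figure D5:**
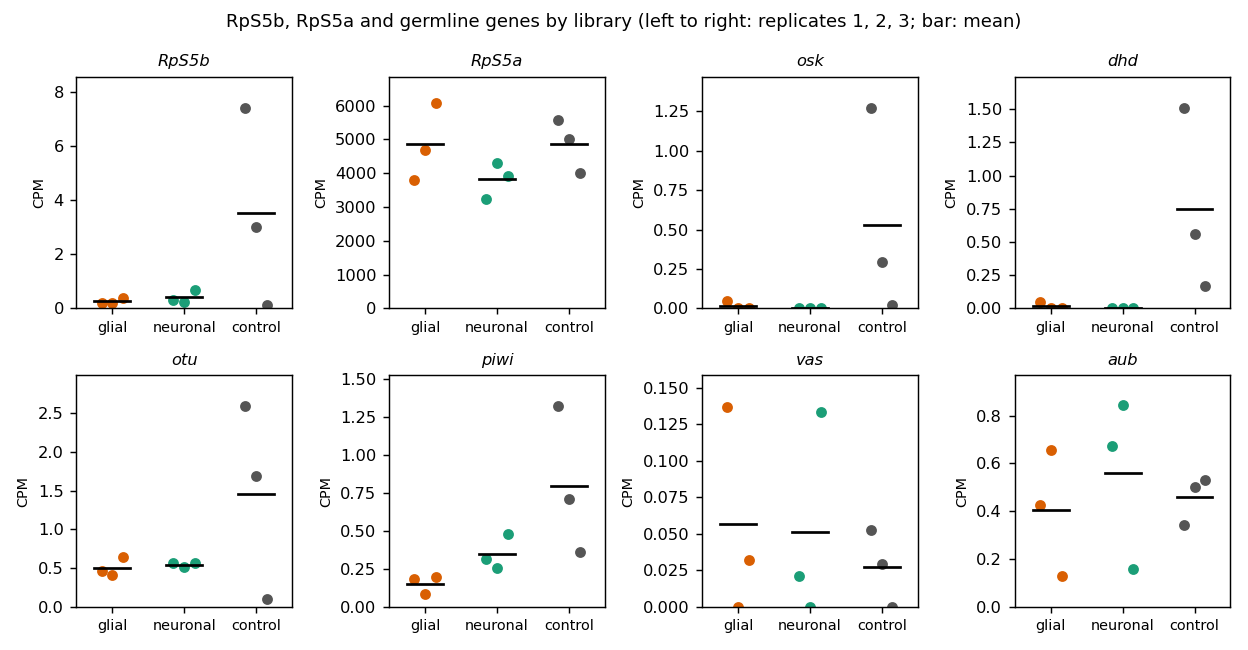
CPM of RpS5b, its copy RpS5a and 6 germline genes in each library, with points as libraries and bars as means of 3 for glial, neuronal and control flies. RpS5b, osk, dhd and otu are high in control libraries 1 and 2, whereas RpS5a shows no such pattern. The other germline genes drawn are piwi, vas and aub, of which vas is close to absent in all libraries. The 12 ovary and germline markers sum to 71.1 CPM in control library 2, within the glial and neuronal ranges.

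The genes that act with the ribosome showed few changes. Of 30 translation initiation factors tested with edgeR, 1 rose and 1 fell in glial against control libraries, beside 4.42% of all genes called. In neuronal against control 0 did so, beside 0.709% of all genes called. There 1 was higher and 2 lower at an unadjusted p under 0.05, beside 6.55% and 6.73% of all genes. DESeq2 called eIF1A lower and eIF4EHP higher there, beside 4.11% of all genes called. The gene that rose in glial against control was eIF6. It keeps free large subunits from joining small subunits and is needed for large subunit maturation. It had 37.4, 39.9 and 37.1 CPM in glial, 14.9, 19.0 and 17.0 CPM in neuronal, and 17.6, 15.6 and 18.5 CPM in control libraries. The glial libraries lay far above both other groups, which overlapped. Its log2 fold change was 1.15 ± 0.13 against control and 1.17 ± 0.13 against neuronal libraries (SE), with edgeR adjusted p of 0.00193 and 0.00231. Leaving out single libraries left it between 1.05 and 1.201 against control.

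The initiation factor that fell in glial against control was eIF4EHP, a cap-binding protein that represses translation. It had 10.4, 9.57 and 10.8 CPM in glial, 20.03, 23.6 and 20.5 CPM in neuronal, and 15.2, 15.7 and 13.6 CPM in control libraries, with no overlap between the 3 groups. The log2 fold change was −0.53 ± 0.13 against control, at an edgeR adjusted p of 0.0492 that passed the threshold in few of the other settings, and −1.06 ± 0.13 against neuronal libraries, at 0.00288. Its exons overlap those of Syx1A, a gene of synaptic vesicle fusion, so some of its reads may not be its own. Syx1A had the same order, with log2 fold changes of −0.47 ± 0.11 in glial against control and −0.63 ± 0.11 in glial against neuronal libraries (SE, edgeR adjusted p = 0.0442 and 0.0164). How far the eIF4EHP values rest on reads of Syx1A was not tested.

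Among 7 genes known to respond to the loss of ribosomal protein gene copies, edgeR called 1, Xrp1, which rose in glial against control libraries. It called 4.42% of all genes there, and the median log2 fold change of the 7 was 0.16. In neuronal against control 0 were called by edgeR or DESeq2, beside 0.709% and 4.11% of all genes. There 1 was higher and 1 lower at an unadjusted p under 0.05, beside 6.55% and 6.73% of all genes. Xrp1 is a transcription factor that is induced in cells with 1 copy of a ribosomal protein gene and is required for their elimination by cell competition. It had 244, 237 and 264 CPM in glial, 150.2, 176 and 177 CPM in neuronal, and 118, 154.6 and 136 CPM in control libraries. The glial libraries lay above all others, and the neuronal range overlapped with that of the control. The log2 fold change was 0.87 ± 0.13 in glial and 0.30 ± 0.13 in neuronal against control (SE), with edgeR adjusted p of 0.00845 and 0.372. The difference between the lines, at 0.57, had an adjusted p of 0.0524 with edgeR and was called by DESeq2 at 0.00214. Gadd45, a stress response gene of the same list, was higher in glial than in neuronal libraries by a log2 fold change of 1.32 ± 0.20 (SE, edgeR adjusted p = 0.00911). Gadd45 had 36.2, 44.5 and 31.8 CPM in glial, 12.6, 19.7 and 12.9 CPM in neuronal, and 24.4, 21.7 and 22.9 CPM in control libraries. In glial against control Gadd45 had 0.70 ± 0.20 at an edgeR adjusted p of 0.0873, and DESeq2 called it at 0.0172. In neuronal against control it had −0.61 ± 0.20 at an edgeR adjusted p of 0.234, and DESeq2 did not call it, at 0.09.

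With edgeR, 0 genes passed in any of the 3 comparisons among 10 elongation and termination factors, 25 ribosome biogenesis factors, 14 genes of the TOR pathway and 5 promoter factors. Of all genes, edgeR called 4.42% in glial against control, 0.709% in neuronal against control and 3.69% in glial against neuronal. The median log2 fold changes of the 4 lists in neuronal against control were −0.07, −0.21, −0.03 and −0.02. At an unadjusted p under 0.05, 1 biogenesis factor was higher and 2 were lower there, as were 0 genes of the other 3 lists, beside 6.55% of all genes higher and 6.73% lower. DESeq2 called Nmd3, the export adaptor of the large subunit, lower in that comparison, beside 4.11% of all genes called. In glial against control, 1 elongation factor, 1 biogenesis factor and 3 TOR pathway genes were higher and 1 biogenesis factor lower at that unadjusted p, beside 10.6% of all genes higher and 9.38% lower. DESeq2 called the elongation factor eEF2 there, beside 9.74% of all genes called. In glial against neuronal libraries 1 elongation factor and 2 biogenesis factors were higher and 1 biogenesis factor lower, beside 9.61% and 8.57% of all genes. DESeq2 called Nmd3, Nop17l and RIOK1 there, beside 8.86% of all genes called. The medians of the 4 lists in glial against control were 0.08, −0.12, 0.01 and −0.12. The ribosomal proteins sta and Rack1, whose symbols lie outside the naming rule, had a median of 0.11 in glial and −0.34 in neuronal against control. Neither passed with edgeR or DESeq2, and 0 had an unadjusted p under 0.05.

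Marker genes of several cell types differed in the glial line. Against control 2 of 6 tested hemocyte markers and 2 of 9 tested fat body markers rose and 0 fell. Of 11 glial markers 2 rose and 3 fell, and 1 of 10 neuronal markers and 1 of 12 muscle markers fell, beside 4.42% of all genes called. Hemocyte markers summed to 479, 555 and 562 CPM in glial, 328, 326 and 392 CPM in neuronal, and 410, 385 and 354 CPM in control libraries. Fat body markers summed to 2477, 2377 and 3007 CPM in glial, 1607, 1382 and 1689 CPM in neuronal, and 2010, 1610 and 1906 CPM in control libraries. Both sums were highest in the 3 glial libraries. Neuronal markers summed to 1826, 2208 and 1787 CPM in glial, 2353, 2639.8 and 2362 CPM in neuronal, and 2027, 2138 and 2023 CPM in control libraries. The part of these cell types in the values of eIF6, Xrp1 and the ribosomal protein genes was not tested.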

How the data were processed

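The authors deposited whole-number counts that are neither scaled for depth nor for length, for 31838 RefSeq transcripts in 9 libraries. The submitters' processing notes name STAR and DESeq2 without role or version. How reads were counted, on which build and annotation and with or without strand, is not given in the sources used here. Libraries were run on Ion Torrent at the same time, per the labels and the design text. Totals of 35550949 to 60322417 counts per library set the precision of low genes. Of the transcripts, 31673 were named from RefSeq's annotation (assembly Release 6 plus ISO1 MT) and summed per gene. The other 165, with 0.297% to 0.685% of the counts, were entries of their own. Exon lengths and overlaps came from Ensembl BDGP6.54, by symbol. No coordinates are given.

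The main test was the quasi-likelihood test of edgeR 4.0.16 (R 4.3.3) over all 9 libraries, with no term but group, after TMM scaling and filterByExpr (counts of at least 10, totals of at least 15). A gene had changed where its Benjamini-Hochberg adjusted p, over all 11430 genes tested, was under 0.05. The SE is the log2 fold change divided by the square root of F. CPM are TMM-scaled. The alternatives were DESeq2 1.42.0, library totals, TMM without the members, no filter, 6 libraries, a replicate block, single transcripts, a gut covariate, other denominators and lengths, and leaving out each library in turn. The coding length was added after seeing the data. The test was checked on simulated data. Named members were those past the threshold, the 2 with the largest positive and the 2 with the largest negative fold change in each subunit and comparison, the 3 highest and 3 lowest per kb of each subunit, and the paralogues, of which 1 gene is not reported here. Of the other lists, up to 4 called genes were named. Members and lists were chosen with earlier results of these data known. List genes not found under their names were not analysed here. The limit of 3 counts covers counting error only.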

Additional observations from a re-analysis of the deposited data

How the results depend on the processing

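With DESeq2, 4, 2 and 1 members were called for glial over control, neuronal over control and glial over neuronal libraries, where edgeR called 0 in each. Counting the single most abundant transcript gave 1 in glial against control, RpL37A. Leaving out 1 library gave 0 to 1 members in glial against control, 0 to 1 in neuronal against control and 0 in glial against neuronal. The 1 was RpS18 without glial library 1 and RpS5b without control library 3. The replicate block called 0 members in all 3 comparisons, as did the main design. The correlation of same-numbered libraries ran from −0.57 to 0.37 over 9 pairs, and that of differently numbered ones from −0.61 to 0.39 over 18 pairs. These correlations use deviations from means of 3 libraries and cannot decide whether the replicate numbers mark shared batches. The labels name no shared batch. The median log2 fold change in glial against control ranged from −0.13 to 0.09 for the large and from −0.17 to 0.12 for the small subunit when single libraries were left out. With library totals the medians in glial against neuronal were 0.0195 and −0.0151. Ribosomal protein genes held 11.4%, 10.5% and 11.5% of the counts outside gut and yolk genes in glial, neuronal and control libraries, and 16.4%, 14.9% and 16.5% outside the 100 most abundant other genes. By the single transcript, 6 of the 10 highest genes per kb were kept.

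Of the genes named, RpL7A in neuronal against control had −0.0186 with a gut covariate and −0.0555 to 0.25 without single libraries. In glial against neuronal the range without single libraries was −0.49 to 0.0105 for RpL38, −0.44 to 0.15 for RpS28b and −0.42 to 0.0914 for RpL41. The cause of these changes was not tested. In glial against control eIF4EHP had an adjusted p between 0.0523 and 0.314 in the settings in which its call was lost, and it was called with DESeq2, the gut covariate and TMM scaling without the members. Ube3a in neuronal against control lost its call in 6 settings, at adjusted p between 0.0501 and 0.0878. Depth limits the low paralogues with few counts most. Of the large and small subunit genes, RpL38, RpL39 and RpL41 had the lowest counts, from 120 to 368 per library for RpL38. Their within-group SD of log2 CPM, at 0.348, 0.373 and 0.424, was not split into depth and spread between libraries.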
